A study of Cricetulus griseus with 9 samples.

Results

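The p53 pathway was followed through 6 genes, chosen by name through their mouse Ensembl gene identifiers: Trp53, Mdm2, Mdm4, Ppm1d, Cdc42 and Cdkn1a. Of these, 4 were measured among the 15557 genes of the expression table: Mdm2 (ENSMUSG00000020184), Ppm1d (ENSMUSG00000020525), Cdc42 (ENSMUSG00000006699) and Cdkn1a (ENSMUSG00000023067). Trp53, which encodes p53 itself, and its inhibitor Mdm4 were not analysed here. RNA came from CHO-K1, an established ovary cell line of the Chinese hamster, taken 48 h after the cells were transfected by lipid with a microRNA precursor (pre-miR-29b-1 or else pre-miR-29a) or with an inhibitor (anti-miR-29a), in 3 libraries for each of the 3 groups. Precursors supply the mature microRNA, and the inhibitor is described by the submitters as blocking both miR-29a and miR-29b-1. Every comparison with anti-miR-29a therefore set a raised miR-29 level against a blocked one, and cells given no small RNA or a control RNA were not analysed here. All groups were grown in medium with charcoal-stripped serum, and the mature microRNAs were not measured in the table used here.

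The p53 protein is a transcription factor that is stabilised after DNA damage and other stress and switches on genes for cell cycle arrest, repair and cell death. Mdm2 marks p53 for degradation and Ppm1d removes activating phosphates from p53 and from the kinases above it, and since p53 induces both genes, each closes a negative feedback loop. MicroRNAs of the miR-29 family have been reported to raise p53 through lower levels of Cdc42 and of the PI3-kinase subunit p85 alpha, and Ppm1d has been reported as a target of the same family. CHO-K1 cells are reported to carry a mutated p53, which limits them as a model of the intact pathway.

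Levels are FPKM, the fragments per kilobase of gene model scaled by library size that the authors deposited. Depth implied by the low values was 15160000 to 20780000 reads per library. The labels say that cells were grown in triplicate without tying libraries to cultures, so the p-values weigh differences against a spread among libraries that may be only technical. The series text speaks of separate transfection experiments, and where each held a single molecule, an effect of the experiment cannot be told apart from that of the molecule. The mesenchymal marker Vim stood at 2361 FPKM on average in anti-miR-29a libraries and Fn1 at 104.1 FPKM, while the epithelial markers Epcam and Cdh1 stayed under 1 FPKM on average in every group. Ptprc and Pecam1, markers of leukocytes and endothelium, were not analysed here.

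Against anti-miR-29a, Mdm2, Ppm1d and Cdc42 transcripts were lower with either precursor. Ppm1d fell most of these, to 55.3% of the anti-miR-29a mean under pre-miR-29b-1 and 60.4% under pre-miR-29a. Mdm2 fell to 70.8% and 74.5%, and Cdc42 to 74.0% and 82.9%, in the same order. Cdkn1a varied up to 2.88-fold between libraries of 1 group and passed the test with pre-miR-29a only, with a call that was lost when any of 3 particular libraries was left out. Of the 4 members, pre-miR-29b-1 had 3 called lower, and pre-miR-29a had 4 called lower. A call here is an adjusted p under 0.05 in limma, fitted to the 9504 genes whose mean reached 1 FPKM, a filter that all 4 members passed.

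These counts stand against a response in most of the genes that passed the filter. Of all tested genes, 55.2% were called with pre-miR-29b-1 (25.8% higher and 29.4% lower) and 58.4% with pre-miR-29a (27.5% higher and 30.9% lower). With both precursors averaged the share was 61.6% (29.3% higher and 32.3% lower), and 3 of 4 members were called lower. The median log2 fold change of all tested genes was -0.01, -0.02 and -0.01 in these comparisons. Both precursor groups were compared with the same 3 anti-miR-29a libraries, so the comparisons are not independent of each other. In bulk RNA, fewer cells with a transcript and less of it per cell cannot be told apart.

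**Figure D1:**
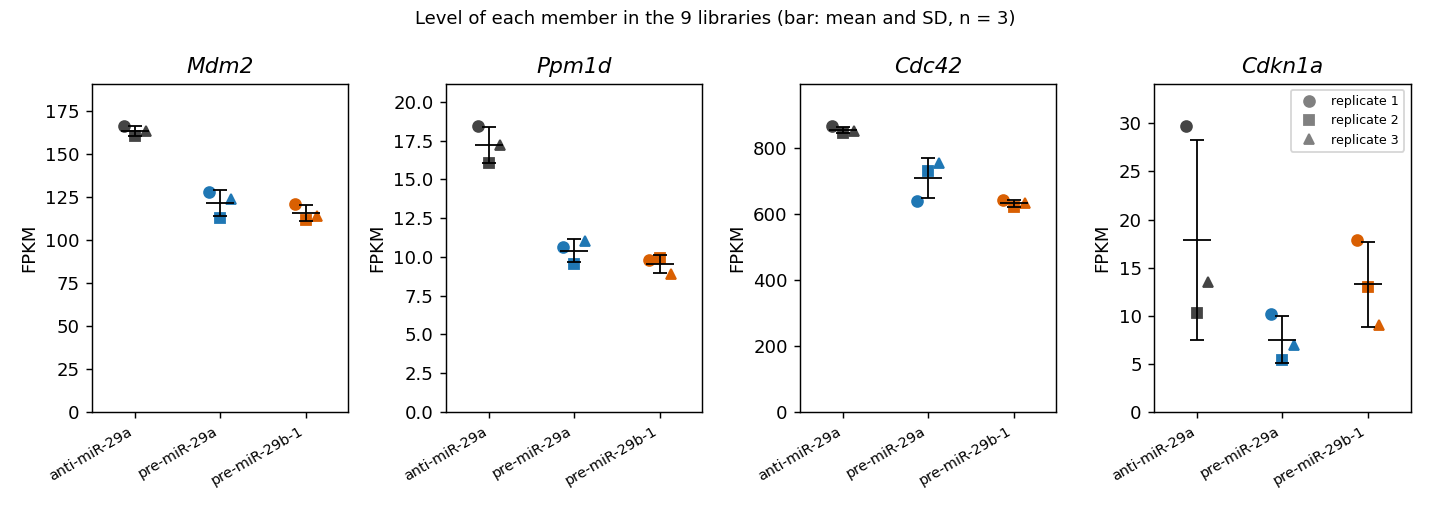
Levels in FPKM (vertical axes, linear from 0) of the 4 measured members in each library of the 3 transfection groups (horizontal axes); symbols mark the replicate number, and the bar gives the mean and SD of 3 libraries. The anti-miR-29a libraries lie above all precursor libraries for Mdm2, Ppm1d and Cdc42, whereas those of Cdkn1a spread from 10.3 to 29.7 FPKM and overlap with pre-miR-29b-1.

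Mdm2 encodes the ubiquitin ligase that is the main negative regulator of p53. Its model lies on scaffold JH000063 of the hamster assembly CriGri_1.0, from 2972598 to 2991410 on the plus strand, with 10 coding exons that hold 1434 bases. In the anti-miR-29a libraries Mdm2 stood at 166, 160.2 and 163 FPKM (replicates 1 to 3). It stood at 121, 112 and 114 FPKM in the pre-miR-29b-1 libraries, and at 128, 113 and 124 FPKM in the pre-miR-29a libraries. All 6 precursor libraries lay below all 3 anti-miR-29a libraries, and the precursor groups overlapped with each other. How common such separation was over all tested genes was not counted, here or for the genes below. The means were 163.1 ± 2.89 FPKM (SD, n = 3) with anti-miR-29a, 115.5 ± 4.85 FPKM for pre-miR-29b-1 and 121.5 ± 7.66 FPKM for pre-miR-29a. The log2 fold change, here and below on the log2(FPKM + 1) scale, was -0.49 with pre-miR-29b-1 (SE 0.06, limma adjusted p = 4.75e-05). With pre-miR-29a it was -0.42 (SE 0.06, limma adjusted p = 0.000116). Mdm2 was measured on 2956 to 4196 implied reads per library, the fewest with pre-miR-29a and the most with anti-miR-29a.

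Ppm1d encodes Wip1, a phosphatase that switches off the damage response and is itself induced by p53. Its model lies on scaffold JH000227, from 1339815 to 1373658 on the plus strand, with 6 coding exons and 1464 coding bases. Ppm1d stood at 18.4, 16.04 and 17.2 FPKM in the anti-miR-29a libraries. With pre-miR-29b-1 the values were 9.81, 9.90 and 8.86 FPKM, and with pre-miR-29a 10.6, 9.55 and 10.99 FPKM. Again no precursor library reached the lowest anti-miR-29a library. Group means were 17.2 ± 1.19 FPKM (SD, n = 3) with anti-miR-29a, 9.53 ± 0.575 FPKM for pre-miR-29b-1 and 10.4 ± 0.750 FPKM for pre-miR-29a. The log2 fold change was -0.79 (SE 0.08, 95% interval -0.97 to -0.61, limma adjusted p = 2.1e-05) with pre-miR-29b-1. It was -0.68 (SE 0.08, limma adjusted p = 5.21e-05) with pre-miR-29a. With both precursors averaged, Ppm1d ranked 744 from the lowest fold change among the 9504 genes, ahead of Mdm2 at 1522 and Cdc42 at 1953. Ppm1d was measured on 257.6 to 462.5 implied reads per library.

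Cdc42 encodes a small GTPase that organises actin and cell polarity. Its model lies on scaffold JH000406, from 424525 to 438585 on the plus strand, with 5 coding exons and 576 coding bases. Anti-miR-29a libraries held 864, 845 and 851 FPKM. Pre-miR-29b-1 libraries held 642, 621 and 633 FPKM, and pre-miR-29a libraries 638, 729 and 755 FPKM. The groups did not overlap with anti-miR-29a, but the pre-miR-29a libraries were less even than the others, with replicate 1 at the pre-miR-29b-1 level and replicates 2 and 3 above it. The means were 853.5 ± 9.55 FPKM (SD, n = 3) with anti-miR-29a, 631.9 ± 10.8 FPKM for pre-miR-29b-1 and 707.3 ± 61.4 FPKM for pre-miR-29a. The log2 fold change was -0.43 (SE 0.07, limma adjusted p = 0.000314) with pre-miR-29b-1, and -0.27 (SE 0.07, limma adjusted p = 0.00462) with pre-miR-29a.

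Cdkn1a encodes p21, the cyclin-dependent kinase inhibitor through which p53 halts the cell cycle, and is the usual readout of p53 activity. Its model lies on scaffold JH000457, from 191729 to 192877 on the plus strand, with 2 coding exons and 489 coding bases. Cdkn1a stood at 29.7, 10.3 and 13.5 FPKM in the anti-miR-29a libraries. With pre-miR-29b-1 it stood at 17.8, 12.98 and 8.996 FPKM, and with pre-miR-29a at 10.1, 5.404 and 6.99 FPKM. The pre-miR-29a libraries lay below all anti-miR-29a libraries by a narrow gap, and the pre-miR-29b-1 libraries overlapped with them, with replicate 3 below the lowest and the others within the range. The means were 17.8 ± 10.4 FPKM (SD, n = 3) with anti-miR-29a, 13.3 ± 4.42 FPKM for pre-miR-29b-1 and 7.52 ± 2.42 FPKM for pre-miR-29a. The log2 fold change was -1.05 with pre-miR-29a (SE 0.36, 95% interval -1.85 to -0.24, limma adjusted p = 0.0301). With pre-miR-29b-1 it was -0.31 (SE 0.36, 95% interval -1.12 to 0.49, limma adjusted p = 0.488), an interval that holds both a fall like that with pre-miR-29a and no difference. Averaged over both precursors it was -0.68 (95% interval -1.38 to 0.02, limma adjusted p = 0.0831).

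The pre-miR-29a call for Cdkn1a depended on 3 of the libraries. Without anti-miR-29a replicate 1, the highest of the 9, its log2 fold change was -0.63 (limma adjusted p = 0.0938). The call also ended without pre-miR-29a replicate 2 (-0.86, limma adjusted p = 0.104) or replicate 3 (-1.02, limma adjusted p = 0.0745). At the same fold change, it ended as well with no filter on low genes (limma adjusted p = 0.0671) and with variances that were not moderated (limma adjusted p = 0.0982). With array weights the log2 fold change was -0.995 (limma adjusted p = 0.00625). Over all 20 alternatives the adjusted p ran from 0.00119 to 0.104, and 15 kept the call. For the average of both precursors, leaving out anti-miR-29a replicate 2 gave -0.98 (limma adjusted p = 0.0294). With pre-miR-29b-1 the sign itself was not stable, since leaving out anti-miR-29a replicate 1 gave 0.11 (limma adjusted p = 0.776).

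**Figure D2:**
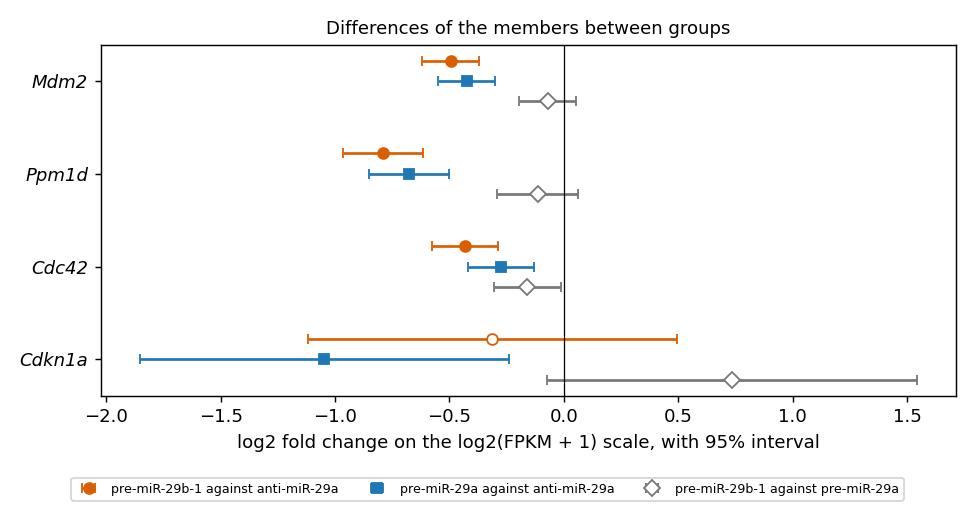
Log2 fold changes on the log2(FPKM + 1) scale (horizontal axis) with 95% intervals for each measured member (vertical axis) in 3 comparisons; filled symbols passed an adjusted p of 0.05 and open ones did not. Mdm2, Ppm1d and Cdc42 lie left of 0 with narrow intervals against anti-miR-29a, and the Cdkn1a intervals are several times wider.

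Libraries of the same group differed in Cdkn1a more than in most genes of its level. The SD within groups was 0.56 log2 units for Cdkn1a, larger than in 98.2% of the 500 genes nearest to it in level. It was 0.06 for Mdm2, 0.09 for Ppm1d and 0.08 for Cdc42, which are common values. Cdkn1a and Ppm1d had similar mean levels over the 9 libraries, 12.9 and 12.4 FPKM, and the 3 anti-miR-29a libraries held 249.1, 76.3 and 118.6 implied Cdkn1a reads against 462.5, 356 and 451.2 of Ppm1d. The replicate numbered 1 was highest for Cdkn1a in each group, by 2.88-fold over the lowest with anti-miR-29a, 1.88-fold with pre-miR-29a and 1.98-fold with pre-miR-29b-1. Cdkn1b, which encodes the related inhibitor p27 and was picked for this comparison after its values were seen, was also highest in replicate 1 of each group, by 1.34-fold, 1.33-fold and 1.20-fold. What the libraries numbered 1 share is not given in the labels, and its part in the result was not tested. Without the 3 libraries numbered 1, the log2 fold change of Cdkn1a was -0.84 (limma adjusted p = 0.0109) with pre-miR-29a and -0.12 (limma adjusted p = 0.654) with pre-miR-29b-1.

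**Figure D3:**
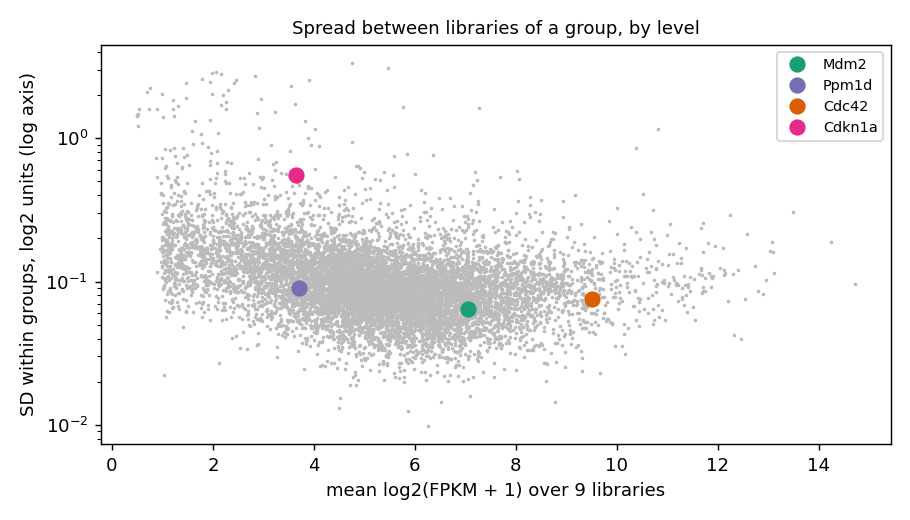
SD between libraries of the same group in log2 units (vertical axis, log scale) against mean log2(FPKM + 1) over the 9 libraries (horizontal axis) for all tested genes in grey and the 4 members in colour. Cdkn1a, at an SD of 0.56, stands at the upper edge for its level, and Ppm1d, at nearly the same level, has an SD of 0.09.

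FPKM is divided by gene length, so levels can be roughly ordered between genes. Lengths are those of aligned coding models, and an error in a model would shift its gene in this order. Cdc42 was the most abundant member with a mean of 730.9 FPKM over the 9 libraries, a level above 97.6% of tested genes. Mdm2 followed with 133.4 FPKM (above 82.7%), then Cdkn1a with 12.9 FPKM and Ppm1d with 12.4 FPKM (above 21.9% and 21% of tested genes). The last of these neighbours did not differ beyond their spread: the log2 ratio of Ppm1d to Cdkn1a was 0.03 ± 0.57 (SD, n = 6) over the precursor libraries and 0.09 ± 0.66 (SD, n = 3) over the anti-miR-29a libraries.

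Whether members fell by unequal amounts was tested on the log2 ratio between members within each library, over 6 pairs. The log2 ratio of Mdm2 to Ppm1d was 3.45 ± 0.07 (SD, n = 6) with the precursors and 3.17 ± 0.07 (SD, n = 3) with anti-miR-29a. That of Ppm1d to Cdc42 was -5.93 ± 0.12 and -5.55 ± 0.08. In both pairs the precursor and anti-miR-29a libraries did not overlap, with Ppm1d the lower of the pair relative to anti-miR-29a. The two-sided exact permutation test gave p = 0.0238 for each, the smallest that 84 regroupings allow. After Benjamini-Hochberg adjustment over the 6 pairs it was 0.0714, so neither passed the threshold. With no further pair at that smallest p, the adjusted value could not fall under 0.05. The adjusted test therefore cannot decide whether these members fell by unequal amounts. For Mdm2 to Cdc42 the difference was -0.11 (exact permutation p = 0.167, adjusted 0.334), and the 3 pairs with Cdkn1a had adjusted exact permutation p-values of 0.714 to 0.905.

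**Figure D4:**
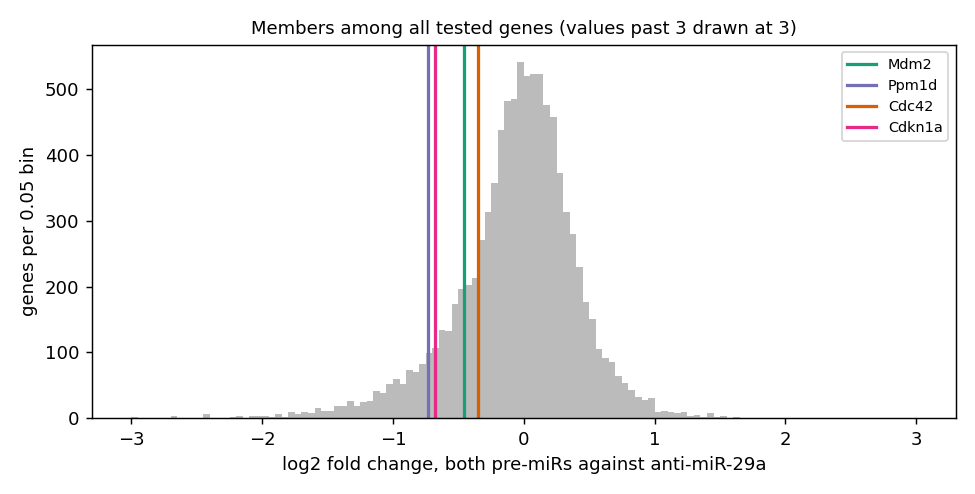
Number of tested genes per bin (vertical axis) by log2 fold change of both precursors averaged against anti-miR-29a (horizontal axis), with a coloured line for each member. Ppm1d at -0.73, Cdkn1a at -0.68, Mdm2 at -0.46 and Cdc42 at -0.35 all lie in the lower shoulder of the distribution, not at its far end.

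Set directly against each other, the precursors gave no difference past the threshold in any of the 4 members. Of all genes tested 0.0105% were called in this comparison, which is 1 gene in limma, while 1570 genes had an unadjusted p under 0.05. The log2 difference of pre-miR-29b-1 from pre-miR-29a was -0.07 for Mdm2 (95% interval -0.20 to 0.05, limma adjusted p = 0.517). For Ppm1d it was -0.11 (95% interval -0.29 to 0.06, limma adjusted p = 0.47), and for Cdkn1a 0.74 (95% interval -0.07 to 1.54, limma adjusted p = 0.335). Cdc42 was lower with pre-miR-29b-1 by its unadjusted interval, at -0.16 (95% interval -0.30 to -0.01), but its limma adjusted p was 0.281. Leaving out pre-miR-29a replicate 1 gave Cdc42 a log2 difference of -0.23 (limma adjusted p = 0.0233), and the number of genes called went from 1 to 1370. That library also had the lowest estimated weight of the 9, 0.213.

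Around these members, 64 genes of the pathway were listed by role, of which 53 had values and 50 passed the filter. Ddb2, Trp63 and Trp73 fell under it, and the other 11 were not analysed here. With both precursors averaged, 12 of the 50 were called higher and 14 lower, or 52.0% against 61.6% of all genes, with a median log2 fold change of -0.04. With pre-miR-29b-1 alone 11 were called higher and 13 lower, or 48.0% against 55.2% of all genes. For pre-miR-29a alone the counts were 10 and 13, or 46.0% against 58.4%. No listed gene was called between the precursors, where 0.0105% of all genes were. Under quantile normalization the split for both precursors became 17 higher and 12 lower. The split of all tested genes moved from 2783 higher and 3074 lower to 3529 and 2627 in the same comparison, and from 2613 and 2940 to 3340 and 2494 with pre-miR-29a alone.

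**Figure D5:**
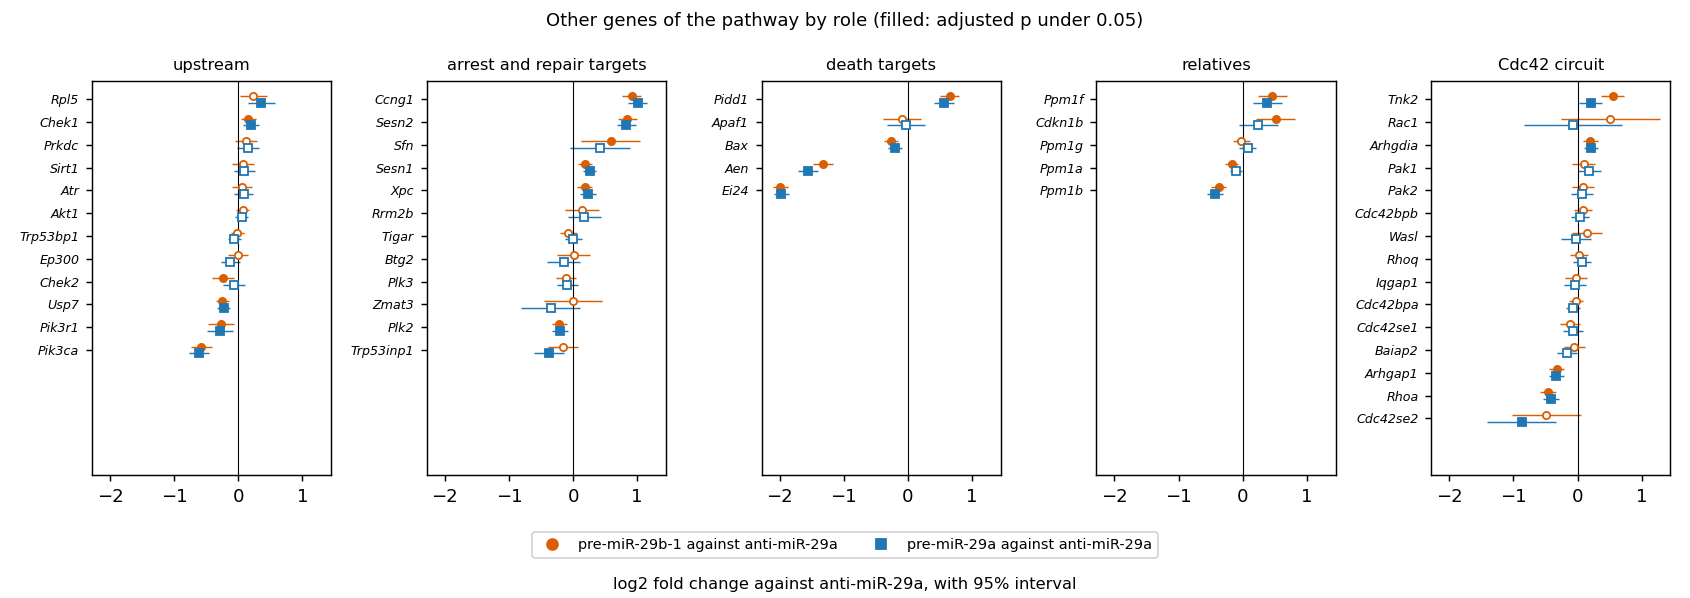
Log2 fold changes against anti-miR-29a (horizontal axis) with 95% intervals for the other tested pathway genes reported here, one panel for each role; circles are pre-miR-29b-1, squares pre-miR-29a, and filled symbols passed an adjusted p of 0.05. Ei24 at -1.98 and Aen at -1.44 for both precursors averaged lie farthest to the left, and Ccng1 at 0.96 farthest to the right.

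Among 13 regulators upstream of p53, 2 were called higher and 4 lower with both precursors averaged, or 46.2% against 61.6% of all tested genes. Pik3r1 encodes p85 alpha, the PI3-kinase subunit of the reported miR-29 route to p53. It averaged 9.86 ± 0.327 FPKM (SD, n = 3) with anti-miR-29a, 8.03 ± 0.341 FPKM under pre-miR-29b-1 and 7.95 ± 1.13 FPKM under pre-miR-29a, and all precursor libraries lay below all anti-miR-29a libraries. Its log2 fold change with both precursors was -0.28 (SE 0.08, limma adjusted p = 0.0124). For single precursors the Pik3r1 call was lost in several alternatives, among them without anti-miR-29a replicate 1 (limma adjusted p = 0.0703 under pre-miR-29b-1 and 0.053 under pre-miR-29a). Pik3ca, the catalytic partner of p85 alpha, had the largest upstream fall at -0.59 (SE 0.06, limma adjusted p = 1.81e-05), from 23.6 FPKM to 15.5 under pre-miR-29b-1 and 15.2 under pre-miR-29a. Rpl5, a ribosomal protein that binds Mdm2, had the largest rise at 0.30 (limma adjusted p = 0.00991), which was lost without anti-miR-29a replicate 1 (limma adjusted p = 0.0554). The Rpl5 and Cdc42se2 models have a single coding exon each, so that intronless copies cannot be told from the gene, and both values are uncertain.

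Of 12 p53 targets for arrest and repair, 5 were called higher and 2 lower with both precursors averaged, or 58.3% against 61.6% of all tested genes. Ccng1, which encodes cyclin G1 and acts on Mdm2, had the largest rise at 0.96 (SE 0.06, limma adjusted p = 4.39e-07), from 31.8 ± 1.64 FPKM (SD, n = 3) with anti-miR-29a to 61.1 ± 4.69 under pre-miR-29b-1 and 65.0 ± 2.93 under pre-miR-29a. Sesn2, a stress-induced sestrin picked after its values were seen, rose by 0.84 (limma adjusted p = 1.34e-06). Trp53inp1, a stress-induced cofactor of p53, had the largest fall at -0.27 (limma adjusted p = 0.024). That call was lost without anti-miR-29a replicate 2 (limma adjusted p = 0.0503), without anti-miR-29a replicate 3 (0.0938) and under quantile normalization (0.0828). Sfn, called higher and named after its values were seen, averaged only 1.19 FPKM over the 9 libraries. Its call was lost under quantile normalization (limma adjusted p = 0.178) and without moderated variances (0.0698). It was also lost when any single anti-miR-29a library was left out (limma adjusted p = 0.0614 to 0.101).

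Of 5 targets linked to cell death, 1 was called higher and 3 lower with both precursors averaged. In that comparison 29.3% of all tested genes were called higher and 32.3% lower, and so few targets cannot show a departure from these shares. Ei24, a p53-induced gene whose protein sits in the endoplasmic reticulum membrane, averaged 57.1 ± 0.914 FPKM (SD, n = 3) with anti-miR-29a, 13.6 ± 0.601 under pre-miR-29b-1 and 13.8 ± 0.295 under pre-miR-29a. Its log2 fold change of -1.98 (SE 0.05, limma adjusted p = 1.87e-09) ranked 31 from the lowest of all 9504 genes. Aen, a p53-induced nuclease named after its values were seen, fell from 36.8 ± 1.35 FPKM (SD, n = 3) to 14.1 ± 0.351 under pre-miR-29b-1 and 11.9 ± 1.12 under pre-miR-29a (log2 fold change -1.44, limma adjusted p = 4.76e-08). Bax, the effector of mitochondrial permeabilisation, which the rule for naming genes did not pick, fell by 0.23 log2 units (limma adjusted p = 0.00108). Pidd1, a death domain protein induced by p53, rose by 0.61 log2 units (limma adjusted p = 1.07e-05), from 14.2 FPKM to 22.9 under pre-miR-29b-1 and 21.5 under pre-miR-29a.

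Of 5 tested relatives of the members, 2 were called higher and 2 lower with both precursors averaged. The shares of all tested genes were 29.3% higher and 32.3% lower, and 5 genes are too few to compare with them. Ppm1b, a phosphatase of the same family as Ppm1d, had the largest fall at -0.40 (limma adjusted p = 3.75e-05), from 50.1 FPKM to 38.3 under pre-miR-29b-1 and 36.9 under pre-miR-29a. Ppm1f, also of that family, had the largest rise at 0.42 (limma adjusted p = 0.00216). Cdkn1b was the other gene called higher. Its call was lost without moderated variances (limma adjusted p = 0.0637) and without anti-miR-29a replicate 2 (0.0846) or replicate 3 (0.0719). Of the 15 genes that regulate or act with Cdc42, 2 were called higher and 3 lower, or 33.3% against 61.6% of all tested genes. Rac1, not called, averaged 3.37 FPKM over the 9 libraries. Its model overlaps that of another gene, so its value is uncertain. Tnk2, a kinase that binds active Cdc42, rose by 0.37 (limma adjusted p = 0.000919), from 20.1 FPKM to 29.7 under pre-miR-29b-1 and 23.3 under pre-miR-29a. For pre-miR-29a alone the Tnk2 call was lost in several alternatives, among them without anti-miR-29a replicate 2 (limma adjusted p = 0.161). Rhoa, a GTPase of the same family, fell from 1111 FPKM to 805 under pre-miR-29b-1 and 830.5 under pre-miR-29a (log2 fold change -0.44, limma adjusted p = 2.99e-05). The small effector Cdc42se2 fell by 0.68 (limma adjusted p = 0.017), a call lost without anti-miR-29a replicate 1 (limma adjusted p = 0.0578), without replicate 3 (0.0539) and without moderated variances (0.0664).

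The genes most like each member were found by the root mean square difference of centred log2 levels over the 9 libraries, among 54 genes. Those closest to Mdm2 were Ppm1b (0.071 log2 units) and Rhoa (0.076). Pik3ca (0.121) and Mdm2 (0.142) were closest to Ppm1d, and Rhoa (0.072) was among the closest to Cdc42. No gene came as close to Cdkn1a, whose nearest were Zmat3 (0.453) and Pik3ca (0.526). The measure is not scaled by spread, so these distances in part restate the SD within groups, 0.56 for Cdkn1a and 0.31 for Zmat3.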

How the data were processed

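Poly(A) mRNA of CHO-K1 cells was sequenced as stranded single-read libraries, per the labels' protocols. The authors deposited 1 table of FPKM values for 15557 genes in 9 libraries. Per the submitters' processing notes, FastQC, TopHat2 2.0.13 (an aligner) and Cuffnorm (which scales expression values) were used. For Cuffnorm, the version, scaling, strand setting and filters were not given in the sources used here. Gene models are mouse proteins aligned to the hamster assembly CriGri_1.0, per the file headers; other columns the authors deposited gave exon coordinates, from which coding lengths and implied reads were computed. Reads outside coding models, including untranslated regions, did not count.

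Groups came from the labels. Members and pathway lists were chosen with earlier results of these data known. Symbols were paired with mouse identifiers from general knowledge, since the files do not pair them. All 56 listed genes with a RefSeq symbol had a model span no longer than the RefSeq gene (assembly CriGri-PICRH-1.0), and 6 of 6 pairs on 1 scaffold lay on 1 RefSeq chromosome. Coding models leave out untranslated regions, so the span check cannot show that each pairing is right. A planned check against protein length was not run, for want of a protein table. Besides all members and Pik3r1, the rule named the largest called rise and fall of each role and the 2 genes most like each member; 1 gene that the rule named is not reported here and is left out of the plot by role, though it is kept in the counts.

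Values were tested as log2(FPKM + 1) with limma 3.58.1 (R 4.3.3), a scale on which changes of low genes are understated. A gene was tested where its mean over the 9 libraries reached 1 FPKM. A single linear model held the 3 groups, and variances were moderated with a trend. The p-values are two-sided, adjusted by Benjamini-Hochberg over 9504 genes, with a threshold of 0.05. The fit was tested on simulated data. Exact permutation tests used SciPy 1.17.1. Depth was read from steps of 1 read in FPKM times length, where 99.1% to 100% of values up to 5 reads lay within 0.2 of a whole number. Alternatives changed the pseudocount, filter, scaling, weights, moderation, libraries in the fit and replicate block, or left out libraries.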

Additional observations from a re-analysis of the deposited data

How the results depend on the processing

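Against anti-miR-29a, Mdm2, Ppm1d and Cdc42 kept their direction and passed the threshold in limma under all alternatives run, with both-precursor log2 fold changes of -0.48 to -0.39, -0.78 to -0.57 and -0.38 to -0.28. Of 316 alternative values for members, 304 kept their side of the threshold, 7 newly passed it and 5 no longer did. A called value reversed in 0 of them, but the 304 include changes of sign without a call. Cdkn1a with pre-miR-29b-1, never called, ran from -0.613 to 0.108. For Cdkn1a with pre-miR-29a the call was lost with no filter (-1.047) and without moderation (-1.047), and leaving out single libraries gave -1.348 to -0.627. For Cdkn1a with both precursors it was gained with array weights (-0.618), and leaving out single libraries gave -0.981 to -0.26. Between the precursors, array weights called 3 members where none was called before: Mdm2 (-0.115), Cdc42 (-0.25) and Cdkn1a (0.755). Leaving out single libraries there called 0 to 1 members, with Cdc42 at -0.231 to -0.11. Genes called between the precursors went from 1 to 3627 with array weights, 0 without moderation, 0 with only the compared groups, 1370 without pre-miR-29a replicate 1 and 314 without the libraries numbered 1, an alternative chosen after seeing the data. The cause was not tested.

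The labels do not say what a replicate number marks, and the numbers were not taken as pairs. Deviations of libraries with the same number correlated at -0.018 to 0.295 over 9 pairs, 6 of them over 0.1, and those of other pairs at -0.282 to 0.091; the 3 pairs numbered 1 stood at 0.142 to 0.295, and not every library correlated best with its own number. With the replicate block, Cdkn1a passed for both precursors (-0.68, limma adjusted p = 0.00521) and for pre-miR-29a (limma adjusted p = 0.00119), and 184 genes were called between the precursors. The FPKM scaling is not known, so a shift common to all genes could not be measured, and among the members depth was lowest for Cdkn1a, at 50.3 to 249.1 implied reads.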
